A study of Mus musculus with 12 samples.

Results

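The 10 genes followed here give a neuron its serotonergic identity, or make, store, retrieve and break down serotonin, and were measured in RNA-Seq libraries of the mouse dorsal raphe (DR). The members were taken by gene symbol: Tph2, Slc6a4, Slc18a2, Ddc, Gch1, Gchfr, Maob, Fev, Lmx1b and Slc22a3. These are 10 of the 24421 genes listed in the count files, and all 10 were among the 15453 genes that passed the filter on low counts. The series holds 12 libraries, each from 1 animal. The 8 STAT3 KO animals (Sert Cre/+, Stat3 fl/fl; 4 females and 4 males) carry a Stat3 gene that Cre recombinase deletes in cells using the serotonin transporter promoter. The 4 controls (2 females and 2 males) are littermates with the same Cre allele and 1 floxed Stat3 allele (Sert Cre/+, Stat3 fl/+), so by the study's methods both groups carry Cre, and no group without Cre was compared. The Cre founder line carries its transgene in Slc6a4 itself, which is also a member here. All animals were of C57BL/6 x 129 strain, were housed singly and were 8 to 16 weeks old at the onset of experiments.

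The DR in the midbrain holds a large share of the serotonin (5-HT) neurons of the brain, which project to most of the forebrain. In these cells tryptophan is hydroxylated by TPH2, with tetrahydrobiopterin as the cofactor, and the product is converted to serotonin by DDC. Serotonin is packed into vesicles by VMAT2, is taken up again after release by SERT, and is degraded by monoamine oxidases. The transcription factors FEV (Pet1) and LMX1B switch on these genes during development and keep them on in the adult.

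Depth was 24379588 to 29645210 counts per library, so that 3 counts equalled 0.101 to 0.123 CPM (counts per 1000000 counts of the library). Stat3 was at 64.4, 65.4, 66.9 and 67.0 CPM in the controls and at 62.9 to 71.0 CPM in STAT3 KO, with a median of 66.8. The groups overlapped. Its log2 fold change was -0.0077 ± 0.039 (SE; edgeR quasi-likelihood test, adjusted p = 0.992). The dissected piece also holds cells that never carried the deletion, and the rows are whole genes rather than the deleted exons, so this value does not check the genotype. The DR label was checked against its markers: Tph2, at 539 to 883 CPM, was present in every library. The other monoamine markers were lower but also present. Th (dopamine synthesis) was at 24.3 to 85.5 CPM, Slc6a3 (dopamine transporter) at 9.77 to 112 CPM and Dbh (noradrenaline synthesis) at 0.506 to 24.7 CPM. Because these are pieces of tissue, fewer serotonergic cells and less RNA per cell cannot be told apart in any value below.

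In 1 member, Slc6a4, 2 libraries stood apart, 1 in each group. Control 3 and STAT3 KO 5, both female, held 58.5 and 55.6 counts of Slc6a4 per 100 counts of Tph2. The other 10 libraries held 26.5 to 31.4, with a median of 29.1. Values of Slc6a4 that rest on these 2 animals are given with and without them, except its correlation with Tph2 and its 95% intervals. This choice was made after the values were seen.

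To place the members on the genome, RefSeq promoter windows (250 bases before to 50 after a start site, GRCm38.p6) were available for 9 of the 10 members. Maob had no window. The windows of Tph2 and Slc6a4 are shown because their ratio is the measure that separated the 2 libraries, and that of Fev because it held a homeobox core. Capitals mark that core (TAATTA, read on both strands) in the Fev window, 69 bases before the start. The other 2 windows held none of the searched motifs and are in lower case throughout. Each is written 5′ to 3′ on the strand of its gene.

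Tph2 (chr10:115184973-115185272, minus strand): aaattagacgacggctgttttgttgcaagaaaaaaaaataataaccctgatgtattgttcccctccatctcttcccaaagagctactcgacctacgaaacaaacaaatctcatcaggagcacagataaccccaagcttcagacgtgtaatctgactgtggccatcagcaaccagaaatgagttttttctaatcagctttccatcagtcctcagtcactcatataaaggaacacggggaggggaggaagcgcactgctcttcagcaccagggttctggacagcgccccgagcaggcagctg

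Slc6a4 (chr11:76998347-76998646, plus strand): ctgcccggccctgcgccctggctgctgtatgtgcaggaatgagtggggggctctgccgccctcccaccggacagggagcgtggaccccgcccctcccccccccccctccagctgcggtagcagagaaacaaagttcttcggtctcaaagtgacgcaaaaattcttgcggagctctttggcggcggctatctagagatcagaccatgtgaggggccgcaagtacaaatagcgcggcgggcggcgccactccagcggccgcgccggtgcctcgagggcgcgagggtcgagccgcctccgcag

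Fev (chr1:74885359-74885658, minus strand): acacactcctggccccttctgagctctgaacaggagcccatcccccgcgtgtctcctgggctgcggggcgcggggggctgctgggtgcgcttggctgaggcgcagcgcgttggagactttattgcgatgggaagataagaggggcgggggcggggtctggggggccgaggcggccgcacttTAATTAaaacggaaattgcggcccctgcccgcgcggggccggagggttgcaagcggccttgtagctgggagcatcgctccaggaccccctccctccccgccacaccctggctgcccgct

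The Tph2 window had a GC content of 47.3% and a ratio of observed to expected CpG of 0.542. The Slc6a4 window was richer in both, at 67.7% GC and 0.816, and so was the Fev window, at 69.0% GC and 0.704. Over all 32851 windows the median was 52.7% GC and 0.384. The STAT motif TTCNNNGAA was in 0 of the members' 10 windows (Ddc has 2), against 8.30% of all windows. The ETS core CCGGAA, of the kind bound by the family FEV belongs to, was in 1 window, that of Slc22a3 at 249 bases before the start, against 14.9% of all windows. The homeobox core was in 1, that of Fev, against 5.29%. The cores do not overlap each other. These letter matches are descriptions of a short window.

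Levels were compared between genes as CPM per kb of exon (merged exons of GENCODE vM21), a scale that takes gene length into account. Tph2 (chr10:115078641-115185022, minus strand), which encodes the rate-limiting enzyme of serotonin synthesis in the brain, was the most abundant member at a median of 255 CPM per kb (187 to 307). Ddc (chr11:11814101-11898144, minus strand), which encodes the decarboxylase of the second step, followed at 80.0 (62.2 to 93.6). Slc18a2 (chr19:59260896-59296012, plus strand), the vesicular monoamine transporter gene, was at 68.4 (54.2 to 79.2), and Slc6a4 (chr11:76998603-77032340, plus strand), the serotonin transporter gene, at 49.6 (33.2 to 90.5). Maob (chrX:16709282-16817366, minus strand), which encodes a monoamine oxidase of the outer mitochondrial membrane, was at 46.1 (36.3 to 53.3). The ranges of Ddc, Slc18a2, Slc6a4 and Maob overlapped from each gene to the next. Ddc was above Slc18a2 in 12 of 12 animals, Slc18a2 above Slc6a4 in 10 and Slc6a4 above Maob in 8. Without control 3 and STAT3 KO 5 Slc18a2 (59.0 to 79.2) and Slc6a4 (33.2 to 52.4) did not overlap, whereas Slc6a4 was above Maob in 6 of the 10 animals and below it in 4.

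The cofactor genes were lower. Gchfr (chr2:119167773-119172390, plus strand), whose protein is the feedback regulator of GTP cyclohydrolase, was at 29.0 CPM per kb (19.7 to 36.2). Gch1 (chr14:47153895-47189413, minus strand), which encodes that enzyme and so the first step of tetrahydrobiopterin synthesis, was at 7.12 (5.61 to 7.65). Between them lay Fev (chr1:74881509-74885419, minus strand) at 14.6 (9.35 to 17.0). Slc22a3 (chr17:12418960-12507704, minus strand), an organic cation transporter that takes up monoamines with low affinity, was at 3.68 (2.49 to 4.37). Lmx1b (chr2:33560965-33640511, minus strand) was the lowest at 0.658 (0.532 to 0.762), with 72 to 105 counts per library. From Maob downwards each gene was above the next in 12 of 12 animals with no overlap of ranges. In the annotation 111 exon bases of Slc18a2 lie across Gm29261 and 420 of Slc22a3 across Plg, both on the opposite strand, and whether counting used strand is not given in the sources used here.

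**Figure D1:**
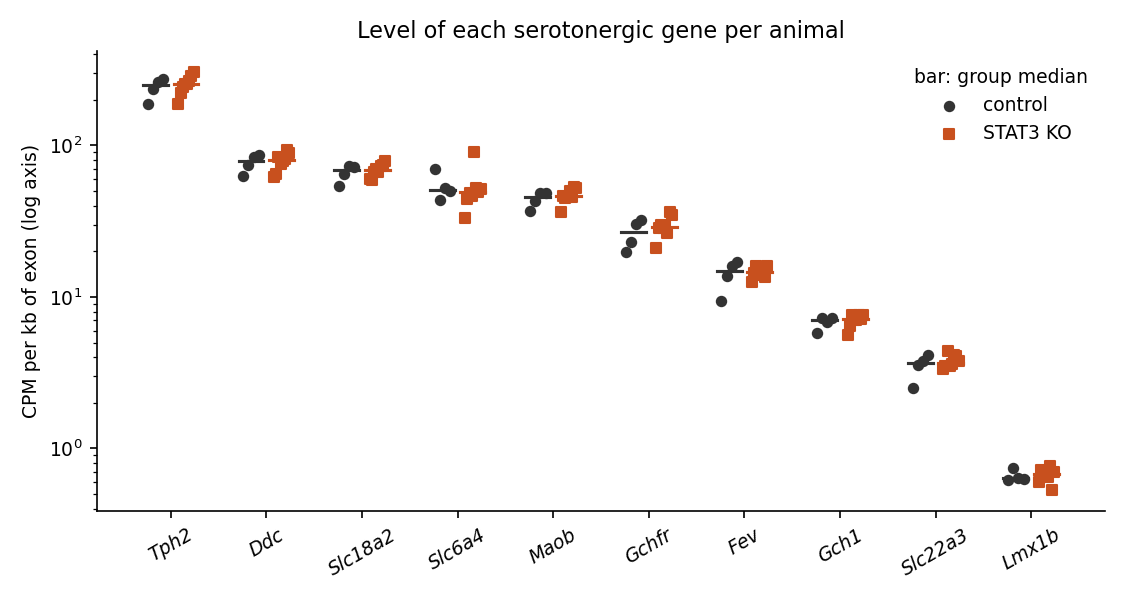
Level of each member in every animal, in CPM per kb of exon on a log axis; circles are the 4 controls, squares the 8 STAT3 KO animals and bars the group medians. Tph2 lies above the other genes, Lmx1b lies below them, and the 2 genotypes overlap for each gene.

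The question asked of genotype was whether both Stat3 alleles being floxed, against 1 in the controls, moved the defining genes of these neurons. For Tph2 the 4 controls were at 540, 677, 756 and 790 CPM, and STAT3 KO ranged from 539 to 883 CPM with a median of 733. The lowest animals of both groups were nearly equal, and 2 STAT3 KO animals lay above all controls. The log2 fold change was 0.055 ± 0.11 (SE), with a 95% interval from -0.19 to 0.30 (adjusted p = 0.958, edgeR). For Ddc the controls were at 278, 331, 373 and 385 CPM, and STAT3 KO spanned 277 to 418 with a median of 357. Its log2 fold change was 0.018 ± 0.11.

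Of the transporters, Slc18a2 was at 283, 338, 377 and 383 CPM in controls and at 308 to 414 CPM in STAT3 KO, with a median of 357. Slc6a4 was at 199, 226, 237 and 315 CPM in controls, the highest being control 3, and at 150 to 410 CPM in STAT3 KO, with a median of 222 and STAT3 KO 5 as the highest. Slc22a3 was at 11.3, 16, 17.1 and 18.5 CPM in controls and at 15.2 to 19.7 CPM in STAT3 KO, with a median of 16.6. Control 3 was the lowest animal for Slc22a3 and Slc18a2. The groups overlapped for all 3 genes, and the log2 fold changes were 0.031 ± 0.085 for Slc18a2, -0.075 ± 0.19 for Slc6a4 and 0.10 ± 0.11 for Slc22a3.

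Among the cofactor and degradation genes, Gch1 was at 36.1, 43.0, 45.5 and 45.6 CPM in controls and at 35.1 to 47.8 CPM in STAT3 KO (median 44.5). Gchfr was at 12.7, 14.8, 19.6 and 20.9 CPM in controls and at 13.6 to 23.3 CPM in STAT3 KO (median 18.7). Maob was at 103, 119, 134 and 136 CPM in controls and at 101 to 149 CPM in STAT3 KO (median 128). Each of the 3 had its lowest control value in control 3 and its lowest STAT3 KO value in STAT3 KO 14. The log2 fold changes were 0.021 ± 0.081 for Gch1, 0.13 ± 0.14 for Gchfr and 0.061 ± 0.089 for Maob.

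The transcription factor Fev was at 15.1, 22.3, 25.8 and 27.5 CPM in controls and at 20.2 to 25.9 CPM in STAT3 KO (median 23.6), so the STAT3 KO values lay within the span of the controls. Lmx1b was at 3.02, 3.09, 3.13 and 3.61 CPM in controls and at 2.59 to 3.72 CPM in STAT3 KO (median 3.32), with the controls inside the STAT3 KO span. Their log2 fold changes were 0.031 ± 0.12 for Fev and -0.0023 ± 0.11 for Lmx1b.

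By genotype 0 of 10 members passed an adjusted p of 0.05, against 0.0% of all genes tested (0 of 15453), and 0 of 10 had an unadjusted p under 0.05, against 7.66% of all genes (1184). The adjusted p values ran from 0.888 to 0.9998 (edgeR). Fold changes were above 0 in 8 members and below 0 in 2, with a median of 0.031 on the log2 scale, beside -0.0011 and 49.4% above 0 over all genes. The groups overlapped in every member (0 of 10 were separate, against 0.447% of all genes). In exact permutation tests of the mean log2 CPM (two-sided, 495 assignments of 4 and 8 animals, smallest possible p = 0.00202), 0 of 10 members were under 0.05, against 7.10% of all genes, and the smallest p was 0.404. Over all animals the widest 95% interval was that of Slc6a4, from 0.716-fold to 1.26-fold, and the narrowest that of Gch1, from 0.901-fold to 1.14-fold. The Slc6a4 interval includes control 3 and STAT3 KO 5, and no interval without them is given. Without control 3 and STAT3 KO 5, 7 of 10 members changed sign and Slc6a4 was at -0.081. The log2 fold changes then ran from -0.12 to 0.019 and 0 were called (smallest adjusted p = 0.997, edgeR). Without control 3 alone Slc6a4 was at 0.078 and Gchfr at 0.019, and the other members were below 0. Without STAT3 KO 5 alone Slc6a4 was at -0.23.

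**Figure D2:**
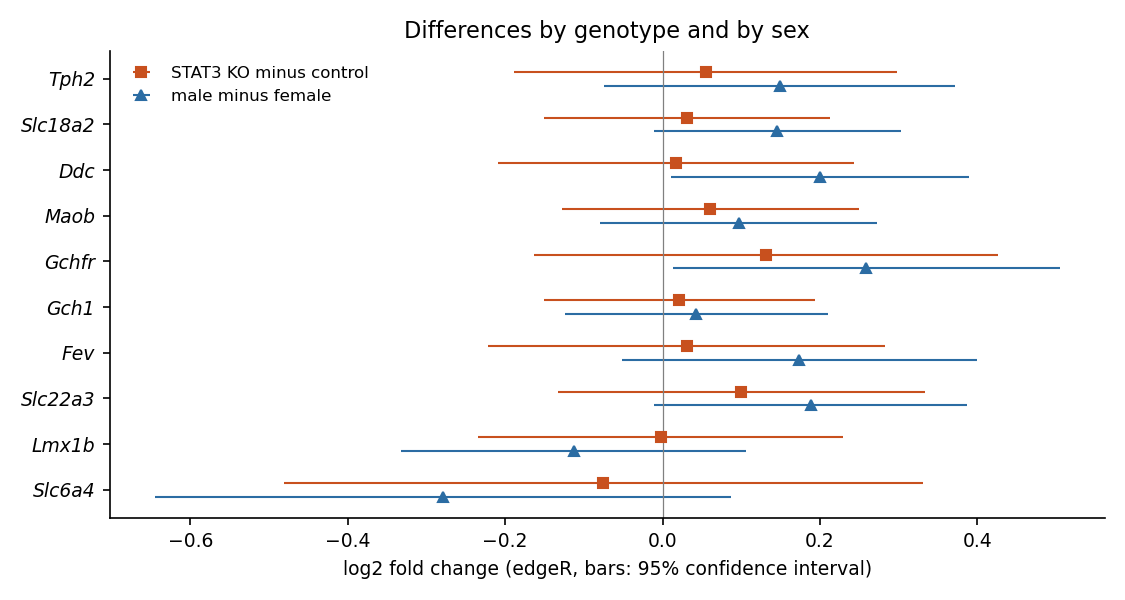
Log2 fold change of each member (horizontal axis) by genotype (squares, STAT3 KO minus control) and by sex (triangles, male minus female) with 95% confidence intervals from edgeR. Each genotype interval includes 0; by sex, those of Ddc and Gchfr do not, at unadjusted p values only.

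Spread between animals was larger than counting noise for 9 members. The coefficient of variation (CV, SD over mean of CPM across 12 animals) was 14.7% for Tph2, where counting alone would give 0.710%. It was 13.4% for Ddc, 10.7% for Slc18a2, 11.4% for Maob, 9.78% for Gch1, 17.8% for Gchfr, 14.2% for Fev and 13.3% for Slc22a3. Slc6a4 was at 27.6% over all 12 animals and at 12.3% without control 3 and STAT3 KO 5, where it was below Gchfr (16.2%), Tph2 (13.5%) and Ddc (12.8%). Genes with a mean of at least 10 CPM (10491 genes) had a median CV of 6.49%. Lmx1b, at 9.80%, was the exception, since counting noise alone gives 10.6% at its depth, and differences between animals in Lmx1b were not detectable.

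Within 1 animal the members other than Slc6a4 and Lmx1b tended to be high or low together. The animals STAT3 KO 14 and control 3 had the lowest Tph2 (539 and 540 CPM) and were also the lowest or next to lowest in Ddc, Gch1, Gchfr and Maob. STAT3 KO 6 had the highest Tph2 (883 CPM), Slc18a2 (414 CPM) and Gch1 (47.8 CPM), and STAT3 KO 8 the highest Ddc (418 CPM), Gchfr (23.3 CPM) and Maob (149 CPM).

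**Figure D3:**
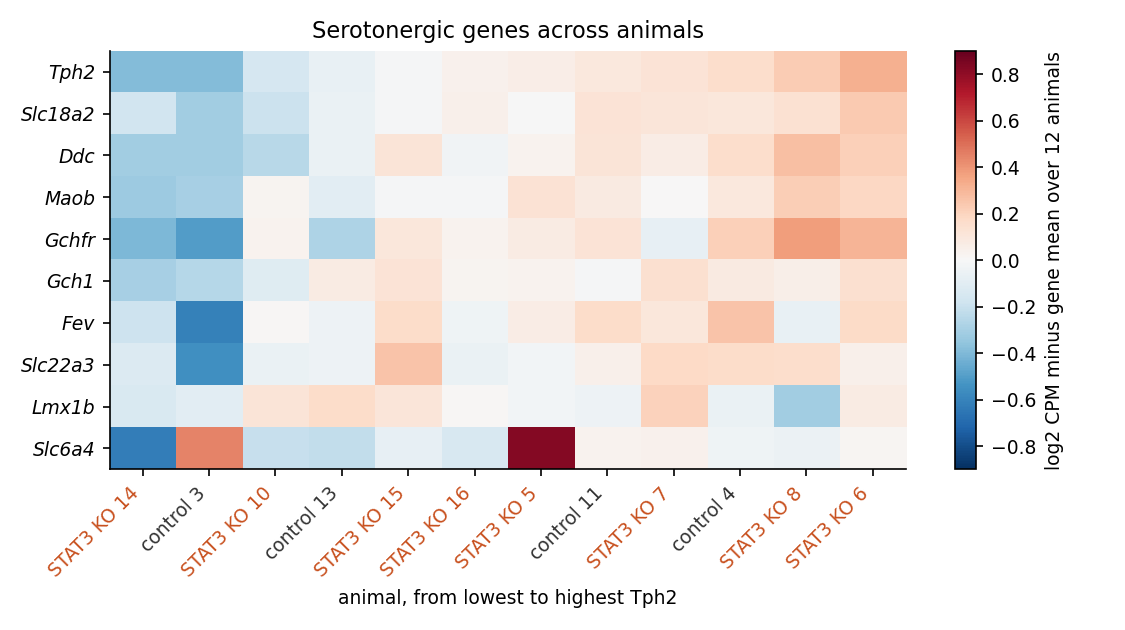
Each cell is a member's log2 CPM in 1 animal minus that gene's mean over the 12 animals; animals run from lowest to highest Tph2, with controls in black and STAT3 KO in orange lettering. The upper 8 genes tend to go from blue at left to red at right, Fev and Slc22a3 less so than the rest. Lmx1b does not, and Slc6a4 is highest in STAT3 KO 5 and control 3.

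Correlations were computed over the 12 animals on log2 CPM, with permutation p values (100000 draws) and Benjamini-Hochberg adjustment over the 15452 other genes tested. With Tph2, Slc18a2 had a Pearson r of 0.95 (Spearman rho 0.92, permutation p = 2e-05, adjusted p = 0.103), the highest of all genes. Ddc was the second highest, with r = 0.94 (rho 0.94, permutation p = 1e-05, the smallest they can give, adjusted p = 0.103). Maob had the third rank, with r = 0.92 (rho 0.85, permutation p = 0.00016, adjusted p = 0.494). Gchfr ranked 5, with r = 0.89 (rho 0.83, permutation p = 0.00026, adjusted p = 0.498), and Gch1 ranked 7, with r = 0.88 (rho 0.72, permutation p = 0.00045, adjusted p = 0.582). No gene passed the adjusted threshold, members included, against a background of 0.0%. With 100000 draws the smallest permutation p is 1e-05, which after adjustment over 15452 genes stays above 0.05 unless several genes share it. The adjusted values of the top genes are thus limited by the number of draws and do not measure the strength of r. By unadjusted permutation p, 7 of the 9 other members were under 0.05 and positive, against 3.18% of all genes (492). The middle range of r over all genes, from the lower to the upper quartile, was -0.24 to 0.24. All values come from the same 12 libraries, whose points share depth and dissection.

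Summed markers of other cells were set against Tph2 in the same way (14 lists, log2 of the summed CPM, adjustment over the 14). The pineal markers (2 of 3 tested) had r = 0.73 (rho 0.59, permutation p = 0.00654, adjusted p = 0.0916), and 0.29 without control 3 and STAT3 KO 14. The endothelial markers had r = 0.53 (rho 0.59, permutation p = 0.0720, adjusted p = 0.504), and 0.69 without these 2 animals. The pan-neuronal markers had r = 0.39 (rho 0.43, permutation p = 0.211, adjusted p = 0.711), and 0.47 without them. The other 11 lists lay between -0.33 and 0.34. The part of these markers in the members' shared rise and fall was not tested.

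Fev, the regulator, followed Tph2 less closely, with r = 0.75 (rho 0.60, permutation p = 0.00376, adjusted p = 0.839), rank 51. Slc22a3 had r = 0.72 (rho 0.65, permutation p = 0.00677, adjusted p = 0.839), rank 81. Lmx1b had r = 0.044 (rho 0.014, permutation p = 0.892, adjusted p = 0.982), at counts where noise is as large as its spread. The 2 animals farthest from the median of Tph2 were control 3 and STAT3 KO 14, the 2 lowest. Without them r was 0.96 for Slc18a2, 0.89 for Ddc, 0.76 for Maob, 0.71 for Gchfr and 0.60 for Gch1 over the 10 other animals. It was 0.39 for Fev and 0.42 for Slc22a3. Of these genes only Slc18a2 did not have a lower r without those animals, which span the lower part of the Tph2 range. Lmx1b turned to -0.45 without both. Without STAT3 KO 14 alone r was 0.76 for Fev and for Slc22a3, and without control 3 alone it was 0.64 and 0.57. Within STAT3 KO animals alone (n = 8), r was 0.93 for Slc18a2, 0.92 for Ddc, 0.89 for Maob, 0.88 for Gch1, 0.87 for Gchfr, 0.61 for Fev, 0.52 for Slc22a3 and 0.036 for Lmx1b; the 4 controls are too few for a value.

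Among the 8 members other than Slc6a4 and Lmx1b, the 28 pairs had r from 0.65 to 0.95, with a median of 0.78. The closest pair was Gchfr and Maob, at 0.95. Lmx1b had r from -0.17 to 0.39 with these 8.

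For each member the genes with the highest r over the 12 animals were listed, as descriptions of likeness. Of the 10 genes most like Tph2, 5 were members (Slc18a2, Ddc, Maob, Gchfr and Gch1). The others were Cdyl2 (r = 0.91), Crhr2 (0.88), which encodes a receptor of the corticotropin releasing factor family, Scg2 (0.87), a granin of dense core vesicles, Nxpe2 (0.87) and Cntnap3 (0.87). Nxpe2 was at 0.184 to 0.682 CPM, where few counts lie behind each value. The first for Slc18a2 after Tph2 were Nxpe2 (0.93) and Ddc (0.93), and for Ddc they were Cdyl2 (0.94), Tph2 (0.94) and Gpr4 (0.93). Gch1 was most like Comtd1 (0.89), Tph2 (0.88) and Cdyl2 (0.88). Gchfr was most like Maob (0.95), S100a10 (0.91) and Tph2 (0.89), and Maob most like Gchfr (0.95), Tph2 (0.92) and Shisa5 (0.90). Fev had other neighbours: Cryba2 (0.93), Tox (0.91) and Kcna5 (0.89). Slc22a3 was most like Glra2 (0.90), Mad2l1 (0.89) and Cryba2 (0.89), and Lmx1b most like Rnf31 (0.93), Crip3 (0.90) and B4galt6 (0.89). Slc6a4 was most like Zhx2 (0.87), A330076C08Rik (0.86) and Loxl1 (0.86), in a gene whose highest values are those of control 3 and STAT3 KO 5. Over the 10 other animals it was most like Cdyl2 (0.91), Tph2 (0.90) and Dhx57 (0.90).

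Ddc, Slc18a2 and Gch1 are also used by dopaminergic and noradrenergic neurons, so they were also set against the markers of dopaminergic and noradrenergic cells. With Th, r was -0.050 for Ddc (rho -0.13, permutation p = 0.877), -0.18 for Slc18a2 (rho -0.18, permutation p = 0.584) and -0.13 for Gch1 (rho -0.056, permutation p = 0.676). With Slc6a3 r was -0.18, -0.27 and -0.27 for the same genes (rho -0.27, -0.26 and -0.077; permutation p = 0.569, 0.400 and 0.385). With Dbh it was -0.19, 0.025 and -0.15 (rho -0.24, -0.12 and -0.14; permutation p = 0.538, 0.938 and 0.666). Adjusted p values over all genes were 0.859 to 0.999 for these 9 relations, and without the 2 farthest animals r was between -0.54 and -0.015. Among all 30 relations of members with Th, Slc6a3 and Dbh, Slc6a4 with Dbh (r = -0.70, rho -0.61, permutation p = 0.00684, adjusted p = 0.962) and Slc22a3 with Slc6a3 (r = -0.63, rho -0.44, permutation p = 0.0427, adjusted p = 0.533) had the smallest unadjusted values. Without the 2 animals farthest from the median of Dbh (control 3 and STAT3 KO 15) the first was -0.83, and without control 3 and STAT3 KO 5 it was -0.57 (rho -0.49, permutation p = 0.1003, not adjusted). Without those farthest in Slc6a3 (STAT3 KO 10 and control 3) the second was -0.60.

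Because members other than Slc6a4 and Lmx1b rose and fell together, each member was also taken relative to Tph2 in the same library. On this scale a shared rise or fall cancels. Slc18a2 lay at 46.7 to 58.0 counts per 100 Tph2 counts, Ddc at 45.4 to 53.2 and Maob at 16.4 to 20.3. The CV of these ratios was 6.20%, 5.17% and 6.32%, below the CV of the levels themselves. Gch1 was at 5.41 to 6.72 per 100 (CV 7.85%), Gchfr at 2.19 to 2.89 (8.42%), Fev at 2.65 to 3.75 (10.7%), Slc22a3 at 1.93 to 2.81 (11.3%) and Lmx1b at 0.313 to 0.559 (16.8%). Division by Tph2 thus left a smaller spread for 7 of the 9 members, the exceptions being Lmx1b and Slc6a4 (32.3%). Without control 3 and STAT3 KO 5 the spread was larger after division for Fev (10.6% against 9.61%) and Slc22a3 (11.4% against 8.92%) also. For Slc6a4 it was then smaller (6.28% against 12.3%).

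Slc6a4 showed its 2 clusters on this scale. In the controls it stood at 28.6 (control 4), 29.3 (control 13), 31.3 (control 11) and 58.5 (control 3) counts per 100 Tph2 counts. In STAT3 KO it was 26.5 (animal 6), 27.0 (animal 8), 27.9 (animal 14), 28.8 (animal 16), 30.8 (animal 7), 31.3 (animal 15), 31.4 (animal 10) and 55.6 (animal 5). Control 3 was at 2.01 times and STAT3 KO 5 at 1.91 times the median of the other 10. In control 3 the Slc6a4 level was 315 CPM although Tph2 was near its lowest at 540 CPM, and in STAT3 KO 5 it was 410 CPM at a Tph2 of 737 CPM. The 2 animals also had the highest Slc6a4 relative to each of the other members (9 of 9 denominators). Against Slc18a2, for example, they stood at 111 and 117 counts of Slc6a4 per 100, and the others at 48.1 to 65.1.

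No coefficient over all 12 animals is given for Slc6a4 with Tph2, since the animals fall into 2 clusters. Over the 10 others r was 0.90 (rho 0.78), a value that the choice of animals raises, so no test is given. Their CV of Slc6a4 per Tph2 was 6.28%, a value that the same choice lowers.

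**Figure D4:**
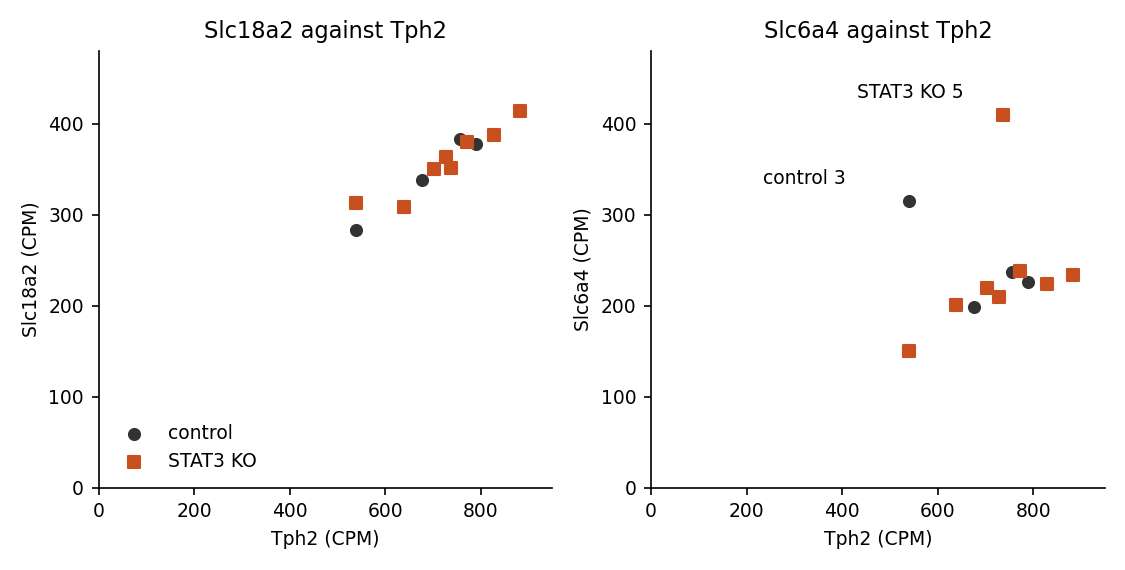
Slc18a2 (left) and Slc6a4 (right) against Tph2, all in CPM, 1 point per animal, circles for controls and squares for STAT3 KO. Slc18a2 rises with Tph2 (r = 0.95), and on the right control 3 (315 CPM) and STAT3 KO 5 (410 CPM) lie above the other 10 animals.

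Other values for these 2 animals are as follows. The summed dopaminergic markers (5 of 5 genes tested) were 528 CPM in control 3, above the 249 to 387 CPM of the other 10, and 343 CPM in STAT3 KO 5, within that range. In control 3 the astrocyte markers (7 of 7) were at 2375 CPM, below 2383 to 2696, and the choroid plexus markers (4 of 4) at 7.84 CPM, below 8.64 to 226. In STAT3 KO 5 the pineal markers (2 of 3 tested) were at 2.18 CPM, above 0.952 to 1.86. Of 15 marker lists these 4 had 1 of the 2 animals outside the range of the other 10, and 0 had both. The noradrenergic markers (3 of 4 tested), for example, were at 2.87 and 5.53 CPM, within 2.80 to 57.7. Oligodendrocyte markers (6 of 6) were at 14074 and 13795 CPM, within 11942 to 16063, and pan-neuronal markers (5 of 5) at 5099 and 4851 CPM, within 4752 to 5383. By the study's methods every animal of both groups carries 1 Cre allele at Slc6a4. The count files hold no row that reads the Cre allele, so the genotypes of control 3 and STAT3 KO 5 rest on their labels. The number of intact Slc6a4 alleles in each animal was not tested, nor was the part of any marker in the ratio.

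**Figure D5:**
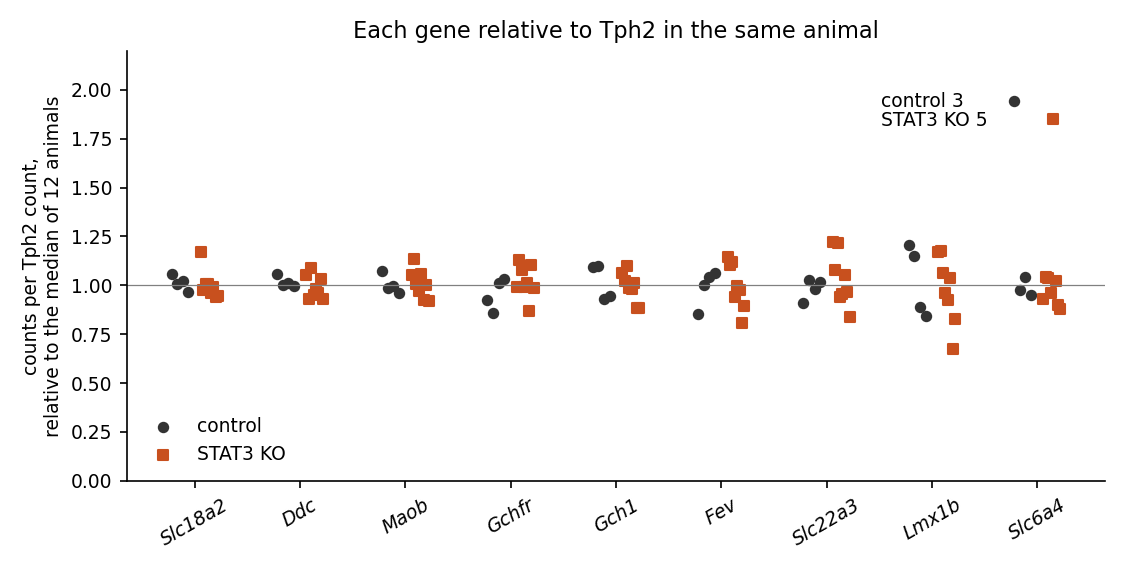
Counts of each member per Tph2 count in the same library, divided by the median over the 12 animals, with 1 point per animal. Points of 8 members lie around 1, with the widest scatter among them for Lmx1b. For Slc6a4 control 3 and STAT3 KO 5 stand near 2 while the other 10 animals do not.

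By genotype 0 of 9 ratios to Tph2 were under 0.05 in two-sided exact permutation tests, and the smallest p was 0.259. Over the 15426 other genes with a count in every library, whose ratios share the same Tph2 counts, 0.901% (139) were under 0.05. The log2 ratio of Slc6a4 to Tph2 was lower in STAT3 KO by a mean difference of -0.16 (exact permutation p = 0.600). Without control 3 alone it was 0.083 (exact permutation p = 0.788), and without both animals it was -0.034 (exact permutation p = 0.600), so that leaving out control 3 alone turned the direction.

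Sex was labelled for each animal, and the members were compared between 6 males and 6 females with genotype in the model. Ddc was higher in males by 0.20 ± 0.089 on the log2 scale, at 277 to 418 CPM in males (median 380) and 278 to 361 CPM in females (median 335). Gchfr was higher by 0.26 ± 0.11, at 13.6 to 23.3 CPM in males (median 20.2) and 12.7 to 19.0 CPM in females (median 17.8). The sexes overlapped in both. Their unadjusted p values were 0.0398 and 0.0401 and neither passed adjustment (adjusted p = 0.677, edgeR). Thus 2 of 10 members had an unadjusted p under 0.05 against 7.20% of all genes (1112), and 0 passed the adjusted threshold against 0.0841% (13 genes). By sign 8 of 10 members were higher in males, with a median log2 difference of 0.15, beside 49.6% of all genes. Without control 3 and STAT3 KO 5 the count was again 8, with a median of 0.085. As members other than Slc6a4 and Lmx1b move together, the signs of those members are not independent of each other. Slc6a4 was at -0.28 ± 0.17, and both animals with high Slc6a4 are female. Without these 2 the difference was 0.018 for Slc6a4, 0.17 for Ddc (unadjusted p of 0.113) and 0.21 for Gchfr (unadjusted p of 0.116). With each animal left out in turn it ran from 0.15 to 0.28 for Ddc and from 0.19 to 0.36 for Gchfr, with the upper end of both reached without STAT3 KO 14 (unadjusted p of 0.00049 and 0.00023, adjusted p = 0.3002 and 0.201, edgeR). In 9 of these 12 fits for Ddc and 7 of 12 for Gchfr the unadjusted p was not under 0.05, and the highest were 0.113 and 0.117, without control 3. For Slc6a4 it ran from -0.37 to -0.090, the latter without STAT3 KO 5.

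For the interaction of genotype and sex, 1 of 10 members, Fev, had an unadjusted p under 0.05, against 5.49% of all genes (848), and 0 passed adjustment, against 0.0%. Fev was at 15.1 and 22.3 CPM in the control females and at 25.8 and 27.5 CPM in the control males. In STAT3 KO it was at 22.4 to 24.7 CPM in females and at 20.2 to 25.9 CPM in males. The sexes were apart in the controls and overlapped in STAT3 KO. The same held for Tph2, Slc18a2, Ddc, Gchfr, Maob and Slc22a3, so that both control males were above both control females in 7 of 10 members, against 18.0% of all genes (2789). All KO males were above all KO females in 0 of 10, against 1.56% (241). The first count rests on 2 animals against 2 and the second on 4 against 4, so they are not compared with each other. Since members other than Slc6a4 and Lmx1b move together, these counts and the signs below are not those of independent genes. The interaction was below 0 in 10 of 10 members, with a median of -0.25 on the log2 scale, beside 50.02% of all genes above 0. Without control 3 and STAT3 KO 5 it was below 0 in 8 of 10, with a median of -0.13. For Fev the difference of the differences was -0.51 ± 0.18 on the log2 scale, with an unadjusted p of 0.0152 (adjusted p = 0.907, edgeR). With each animal left out in turn it ran from -0.82 without control 13 (unadjusted p of 0.00037, adjusted p = 0.530, edgeR) to -0.26 without control 3 (unadjusted p of 0.134, adjusted p = 0.999, edgeR). Either leaves 1 control female, whose spread is then taken to be that of the other groups.

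A list of 33 further genes was followed, of which 29 passed the filter. It holds enzymes and transporters of serotonin, its cofactor and melatonin, serotonin receptors and transcription factors, among them regional patterning factors such as En1, En2, Sim1, Hmx2, Hmx3, Foxa2 and Sox14 that are not particular to serotonergic cells. By genotype 0 of 29 passed an adjusted p of 0.05 (smallest adjusted p = 0.625, edgeR), 20 were above 0 and 9 below (49.4% of all genes were above 0), with a median log2 fold change of 0.045. Of these 29, 3 had an unadjusted p under 0.05, against 7.66% of all genes. Sox14, a transcription factor gene, was at 4.55 ± 0.622 CPM (SD, n = 4) in controls and 5.64 ± 0.798 (SD, n = 8) in STAT3 KO. En1, an engrailed homeobox gene of the midbrain and hindbrain, was at 35.3 ± 2.93 and 40.3 ± 3.69, and En2, its paralogue, at 30.05 ± 0.961 and 36.6 ± 7.32. Their log2 fold changes were 0.29 ± 0.12, 0.17 ± 0.073 and 0.26 ± 0.12 (SE).

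The median r of these 29 genes with Tph2 was 0.19. At an unadjusted permutation p under 0.05, 2 of 29 were positive, against 3.18% of all genes. A further 1 was negative, but the share of all genes on that side was not taken, so no reading is given to it. Htr1a, the serotonin autoreceptor gene, had r = 0.76 (rho 0.68, permutation p = 0.00381, adjusted p = 0.839), and Aanat, at 0.449 to 1.27 CPM, had r = 0.58 (rho 0.48, permutation p = 0.0493, adjusted p = 0.839). Slc29a4, which encodes a low-affinity monoamine transporter of the plasma membrane, had r = -0.60 (rho -0.63, permutation p = 0.0392, adjusted p = 0.839). Maoa, the other monoamine oxidase gene, was at 91.9 to 116 CPM with r = 0.32 (rho 0.13, permutation p = 0.309, adjusted p = 0.880), whereas Maob had 0.92.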

How the data were processed

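DR tissue was dissected from coronal sections below the aqueduct, and total RNA of each animal was made into 1 library, without pooling. Per the labels, the submitters' processing notes name mm10, STAR 2.5.0b and DESeq2 1.6.3. The deposited values are raw counts per gene symbol, and the read counter, the annotation and the use of strand are not given in the sources used here. The 2 lines per file for unassigned reads were left out.

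CPM were taken over all gene rows. Genotype, sex, and their interaction were tested with edgeR 4.0.16 (two-sided quasi-likelihood test, TMM, filterByExpr, sex models with genotype, Benjamini-Hochberg adjustment over 15453 genes) in R 4.3.3. Correlations and exact permutation tests used log2 CPM with a prior count of 2 (Python 3.11.15, numpy 2.4.6, pandas 2.3.3, and matplotlib 3.10.9 for the plots). Scripts were tested on simulated data. The alternatives were DESeq2 1.42.0, edgeR's likelihood ratio test, voom with quality weights (limma 3.58.1), RLE, 2 other filters, sex as a covariate, other scalings and prior counts, and each animal left out.

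Counting floors cover counting error only. Whether samples within a group differ by litter or dissection day is not given, and no sequencing batch is labelled. The named genes were the members, Stat3, the genes of the wider list with an unadjusted p under 0.05 by genotype, the 3 genes most like each member (10 for Tph2), members with an unadjusted p under 0.05 by sex or interaction, and Th, Slc6a3 and Dbh. Htr1a, Aanat, Slc29a4 and Maoa were named after their values were seen. The members and lists were chosen with earlier results of these data known.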

Additional observations from a re-analysis of the deposited data

Results flagged for a closer look

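Values of each member within a group were compared with Dixon's criterion for a lone extreme sample, over 38 groups of values (CPM, and counts per 100 Tph2 counts), of which chance marks about 1 in 20. This marked 4 values.

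Of these, 3 concern Slc6a4. STAT3 KO 5 had 410 CPM, where the next highest of its 8 animals had 238 CPM. Relative to Tph2 the same animal had 55.6 counts per 100, with the next at 31.4, and control 3 had 58.5, with the next of the 4 controls at 31.3. The fourth value is Slc18a2 in STAT3 KO 14, at 58.0 counts per 100 Tph2 counts, with the next animal at 49.9. STAT3 KO 14 had the lowest Tph2 of all animals, at 539 CPM, and Slc18a2 at 313 CPM.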

How the results depend on the processing

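No member was called by genotype, sex or their interaction under any alternative run, and none of the genes of the wider list by genotype. Over all genes, the count by genotype was 6 with DESeq2 and 3 with the likelihood ratio test instead of 0, and 0 to 1 with each animal left out (1 without control 4). The count by sex was 24 with DESeq2 instead of 13, and that for the interaction was 2 with DESeq2 instead of 0, and 0 to 37 with each animal left out (37 without control 11). The cause was not tested.

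The small log2 fold changes of the members by genotype changed sign in places. With voom and quality weights they were -0.0087 for Tph2, -0.0049 for Slc18a2, -0.038 for Ddc and -0.020 for Gch1. Without control 3 and STAT3 KO 5, chosen after seeing the data, they were -0.044 for Tph2, -0.044 for Slc18a2, -0.065 for Ddc, -0.046 for Gch1, -0.023 for Maob, -0.12 for Fev and -0.014 for Slc22a3. Lmx1b was 0.00012 with DESeq2, 0.00047 with all genes of at least 1 count and 0.0012 with at least 10 counts in every library. With each animal left out the range was -0.042 to 0.13 for Tph2, -0.23 to 0.078 for Slc6a4, -0.049 to 0.088 for Slc18a2, -0.065 to 0.083 for Ddc, -0.045 to 0.060 for Gch1, 0.019 to 0.25 for Gchfr (the lower end without control 3), -0.0094 to 0.11 for Maob, -0.12 to 0.14 for Fev, -0.032 to 0.058 for Lmx1b and -0.026 to 0.19 for Slc22a3. The log2 ratio of Slc6a4 to Tph2 ranged from -0.28 to 0.083. By sex, Slc6a4 turned from -0.28 to 0.018 without control 3 and STAT3 KO 5.

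The correlation of Lmx1b with Tph2 was -0.051 without control 3 and STAT3 KO 5, and -0.16 to 0.39 with each animal left out. The other 7 correlations kept their sign. No paired analysis was possible because the litters of the animals are not labelled. The 4 controls and the spread between animals limit the size of difference that could be seen, and for Lmx1b the number of counts does.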
